A study of Mus musculus with 10 samples.

Results

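Toll-like receptors and the receptors of the IL-1 family share a common set of cytoplasmic adaptors and kinases. The genes examined here are 10 of them, taken by name from the panel, namely the adaptors *Myd88*, *Tirap*, *Ticam1* and *Ticam2*, the kinases *Irak1*, *Irak2* and *Irak4*, the ubiquitin ligase *Traf6*, the kinase *Map3k7* (which encodes TAK1) and the inhibitor *Tollip*. All 10 had a probe among the 770 gene probes of the mouse PanCancer Immune Profiling panel of NanoString. Their transcripts were measured in 10 tumors of YUMMER1.7 cells, 5 from WT hosts (replicates 2 to 6) and 5 from Siah2 KO hosts (replicates 1, 2, 3, 5 and 6), collected 11 days after injection of the cells, with 100 ng of RNA per assay. YUMMER1.7 is an immunogenic mouse melanoma line that carries mutant Braf, and the same line was injected in both groups. Siah2, a ubiquitin ligase, was missing throughout the male Siah2-/- host (also written Siah2 KO) but not in the injected cells, so a tumor of this group was a mixture of Siah2-deficient host cells and Siah2-competent melanoma cells. The panel has no probe for *Siah2*, and the genotype could not be checked in these values. The design text of the series names other injected cells, another knockout and another day of collection than the labels of all 10 tumors, which were followed here, and a legend of the study also gives a slightly earlier day.

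Upon ligand binding, receptors of both families recruit MyD88, which brings IRAK4 into a complex with IRAK1 or IRAK2. TIRAP links MyD88 to TLR2 and TLR4 at the membrane. TLR3 signals through TRIF, the product of *Ticam1*, and TLR4 does so from endosomes with TRAM, the product of *Ticam2*, as a bridge. The IRAK complexes activate TRAF6, whose ubiquitin chains recruit TAK1, and TAK1 starts the NF-kB and MAP kinase cascades that drive inflammatory genes in macrophages and other myeloid cells. IRAK1 acts early after stimulation, whereas IRAK2 sustains the later phase and the translation of inflammatory transcripts. *Tollip* and *Irak3* (IRAK-M, found mainly in myeloid cells) restrain the pathway.

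The deposited values are normalized counts, scaled in every tumor to 20 reference genes. Their sum over the 770 gene probes was 512955 to 585366 per WT tumor and 575773 to 741789 per Siah2 KO tumor, the scaling factor was 0.918 to 1.32 in WT and 1.03 to 1.60 in Siah2 KO tumors, and 39 to 84 probes per tumor were at the floor. No pair of tumors held identical values, and the highest correlation between tumors was 0.989. A fold change here is the difference of mean log2(value + 1), Siah2 KO minus WT, with the 95% interval of limma and a p adjusted over all 770 probes. The smallest value that the exact permutation test over all divisions of the tumors can reach is 0.00794. The labels do not say that each tumor came from its own mouse, so that p-values measure the spread between these tumors.

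Of the 10 genes, *Irak2* differed between the groups and the other 9 did not pass the test. Its normalized counts were 194, 169, 181, 223 and 222 in WT tumors 2 to 6. Corresponding values were 316, 303, 408, 400 and 321 in Siah2 KO tumors 1, 2, 3, 5 and 6. The lowest Siah2 KO tumor thus lay above the highest WT tumor, and the tumors with the highest level were Siah2 KO 3 and 5. The means of *Irak2* were 350 ± 50.1 with Siah2 KO and 198 ± 24.1 with WT (SD, n = 5 each). This was a log2 fold change of 0.82 with an interval of 0.54 to 1.09, or 1.76-fold (1.45 to 2.14), with an adjusted p of 0.000893 by limma and an exact permutation p of 0.00794. Among all probes, 16.8% had a higher log2 fold change than *Irak2*. With each tumor left out in turn, its log2 fold change was 0.76 to 0.87 with an adjusted p of at most 0.0032.

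Such a difference was common on this panel. At an adjusted p under 0.05, 41.0% of the 770 probes differed, and 31.3% of all probes were higher in Siah2 KO tumors. Against this background, 1 of the 10 genes was called, and it was higher. Groups without overlap, higher in Siah2 KO, were found for 24.5% of all probes and for 1 of the 10 genes. Groups without overlap in the other direction were found for 7.01% of all probes and for 0 of the 10 genes. The count of 0 genes called lower is by limma, at an unadjusted p under 0.05 the count was also 0, and 75 of all probes were called lower. At an unadjusted p under 0.05, limma called 1 of the 10 genes and 384 probes, and the methods' t-test called 3 of the 10 genes and 379 probes. The median log2 fold change of the 10 genes was 0.16, against 0.24 over all probes, and the median size of the change without regard to sign was 0.16 against 0.38. The set thus had fewer calls and smaller differences than the panel as a whole, which is a description of 10 chosen genes and was not tested.

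**Figure D1:**
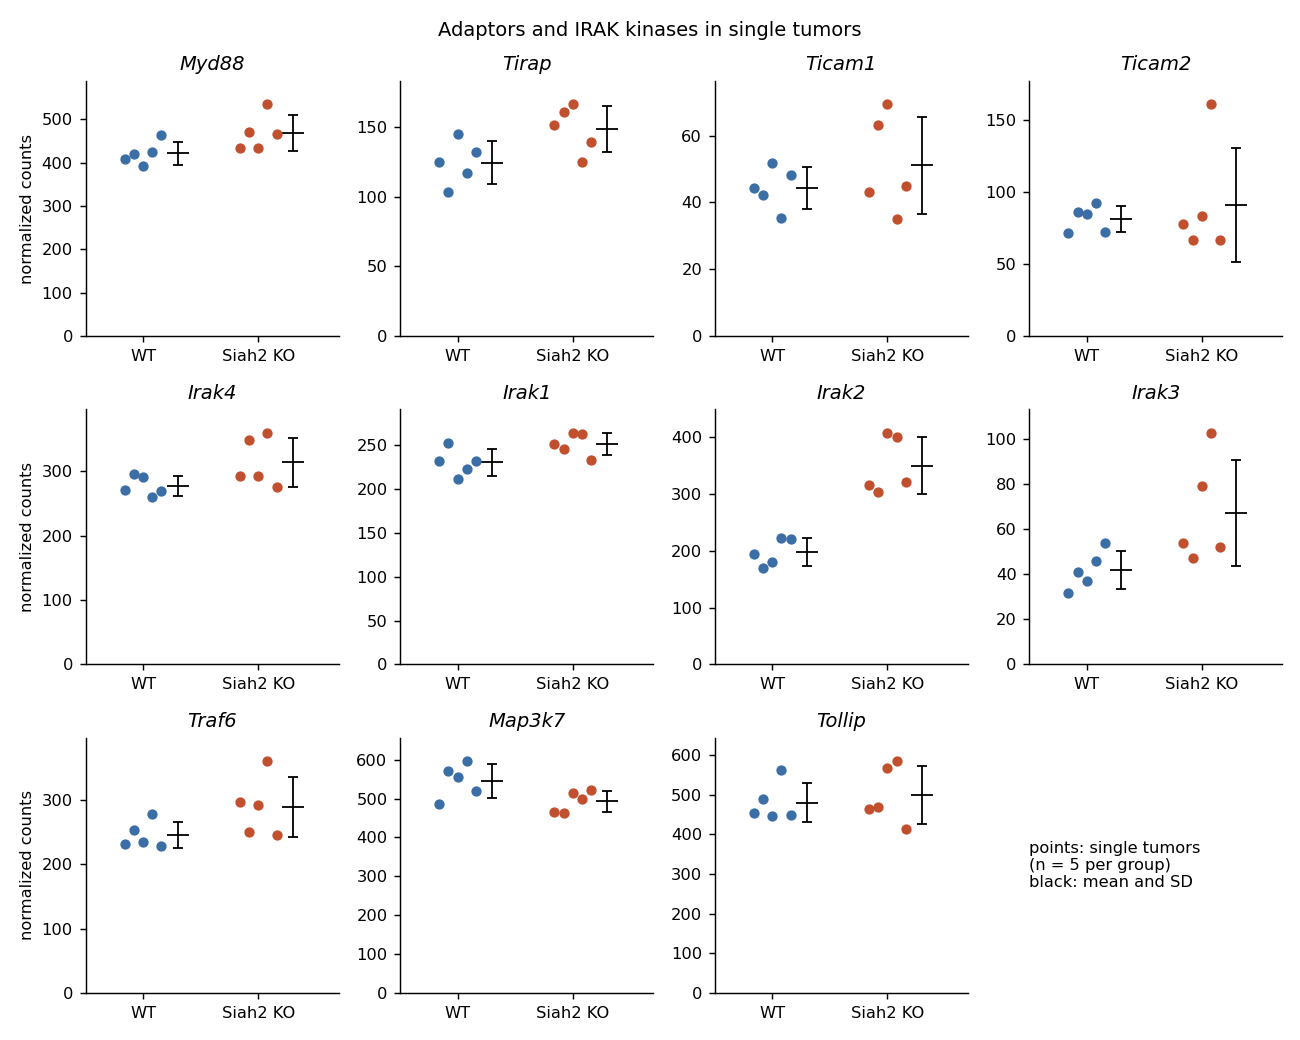
Normalized counts (linear axes from 0) of the 10 adaptor and kinase genes and of Irak3 in single tumors of the WT and Siah2 KO groups. Points are tumors, and the black line and bars give the mean and SD of 5 tumors. The groups are apart for Irak2, with WT tumors up to 223 and Siah2 KO tumors from 303, and overlap in the other panels.

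The scaling of the tumors bears on these values. The deposited scaling rests on reference genes, 5 of 20 of which themselves passed the test, with a median log2 fold change of 0.01. Scaling to the median of the endogenous probes moved the median of all probes by -0.25, quantile normalization by -0.28 and scaling to the positive control probes by -0.16. *Irak2* was higher in Siah2 KO tumors under each of them, by 0.55 with median scaling, 0.49 with quantile normalization and 0.65 with positive control scaling. With positive control scaling its call was lost (adjusted p = 0.23), as were the calls of most probes, 95 of which passed in place of 316. The other 9 genes held no direction across these scalings except for *Map3k7*, whose estimate was below 0 in all. With the deposited scaling 9 of the 10 genes had an estimate above 0, with median scaling 1 and with positive control scaling 5.

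**Figure D2:**
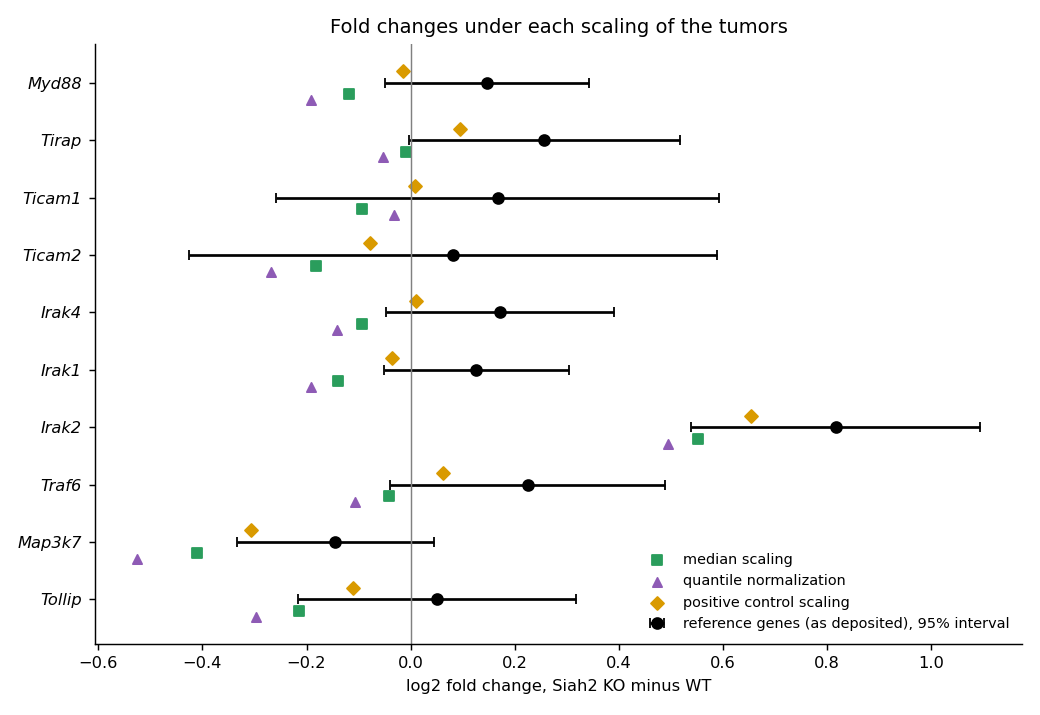
Log2 fold change, Siah2 KO minus WT, of the 10 genes. Black points with 95% intervals are from the deposited scaling to reference genes, and colored symbols are the estimates under 3 other scalings. Irak2 stays above 0 throughout, from 0.49 to 0.82, Map3k7 stays below 0, and the symbols of the other 8 genes fall on both sides of 0.

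Among the adaptors, *Myd88*, used by all Toll-like receptors except TLR3 and by the IL-1 receptors, had 407, 420, 392, 423 and 464 normalized counts in WT tumors 2 to 6. In Siah2 KO tumors 1, 2, 3, 5 and 6 it had 434, 470, 433, 534 and 465. All Siah2 KO tumors lay above the WT median of 420.3, and 3 of them above every WT tumor. The means were 467 ± 41.3 and 421 ± 26.6 (SD, n = 5 each), and the fold of 1.11 (0.966 to 1.27) had an adjusted p of 0.213 by limma. The exact permutation p of *Myd88* was 0.0476, unadjusted. Its estimate turned negative with median, quantile and positive control scaling.

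*Tirap* had the largest estimate among the 9 genes that did not pass. Its level was 104 to 145 in WT tumors (median 125) and 125 to 167 in Siah2 KO tumors (median 152). The fold of 1.19 (0.997 to 1.43) had an adjusted p of 0.104 by limma and an exact permutation p of 0.0556. The TRIF adaptors followed with wider intervals. *Ticam1* was at 51.1 ± 14.6 with Siah2 KO and 44.4 ± 6.21 with WT (SD, n = 5 each), with a fold of 1.12 (0.836 to 1.51). *Ticam2* was at 90.9 ± 39.7 and 81.3 ± 9.16 (SD, n = 5 each), with a fold of 1.06 (0.744 to 1.50). For both TRIF adaptors the interval takes in an increase of 1.50-fold, and a change of that size is thus compatible with these values. The mean of *Ticam2* rests on 1 tumor, Siah2 KO 5, at 161 normalized counts, while the other 4 Siah2 KO tumors were at 66.5 to 83.3. Without that tumor the log2 fold change was -0.14.

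The IRAK kinases behaved unequally. *Irak4*, the kinase that MyD88 recruits first, was at 314 ± 37.6 in Siah2 KO tumors against 277 ± 15.8 in WT (SD, n = 5 each), giving a fold of 1.13 (0.967 to 1.31) with an adjusted p of 0.194 by limma. *Irak1* had 232 to 264 normalized counts in Siah2 KO and 211 to 253 in WT tumors. Its fold was 1.09 (0.965 to 1.23), with an adjusted p of 0.235. The intervals of *Irak1* and *Irak4* end below the lower bound of *Irak2* at 1.45-fold. *Irak3*, the fourth gene of the family on the panel and not one of the 10, was at 54.2, 47.3, 79.5, 103 and 52.1 in Siah2 KO tumors 1, 2, 3, 5 and 6. It was at 32.0, 41.3, 37.1, 45.9 and 53.9 in WT tumors 2 to 6. Siah2 KO tumors 3 and 5, which were highest for *Irak2*, were also highest for *Irak3*. The same tumors had the largest normalized totals over all gene probes, at 726023 and 741789, against 575773 to 645231 in the other Siah2 KO tumors. Siah2 KO 1 sat just above the highest WT tumor, and Siah2 KO 2 and 6 lay within the WT range. The log2 fold change of *Irak3* was 0.62 (0.12 to 1.13) with an adjusted p of 0.0506, just short of the threshold, and it passed with a pseudocount of 10 (0.046) or a filter at a mean of 20 normalized counts (0.036). Over the other settings that kept all tumors or 8 of them, the estimate of *Irak3* was as low as 0.36 and the adjusted p as high as 0.448.

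Because a ratio of 2 genes within a tumor does not depend on how that tumor was scaled, 8 pairs were compared, each with limma over all probes after subtraction of the second gene. Of these, 3 passed. The log2 ratio of *Irak2* to *Irak1* was 0.33, 0.30, 0.63, 0.61 and 0.46 in Siah2 KO tumors 1, 2, 3, 5 and 6. It was -0.25, -0.58, -0.22 and -0.07 in WT tumors 2, 3, 4 and 6, and 0 in WT 5. These are ratios of probe signals, which bind with their own efficiency, and only their change between groups is read. Every Siah2 KO tumor lay above every WT tumor, with a log2 difference of 0.69 (0.41 to 0.97), an adjusted p of 0.0023 by limma and an exact permutation p of 0.00794. Over *Irak1*, 38.1% of the other 769 probes differed. *Irak2* over *Irak4* gave a log2 difference of 0.65 (0.289 to 1.001), also without overlap, with an adjusted p of 0.011 and 31.7% of the probes called. By these ratios the change of *Irak2* was larger than that of *Irak1* and than that of *Irak4*.

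The ratio of *Irak1* to *Irak4* had a log2 difference of -0.05 (-0.30 to 0.21), with an adjusted p of 0.824 by limma. *Irak3* over *Irak4* was at 0.45 (-0.04 to 0.95), with an adjusted p of 0.153. The balance of the MyD88 and TRIF adaptors, *Myd88* over *Ticam1*, was at -0.02 (-0.60 to 0.56), where 13.7% of the probes differed over *Ticam1*. *Tirap* over *Ticam2* was at 0.18 (-0.45 to 0.80), with 21.8% of the probes called over *Ticam2*, and without Siah2 KO 5 it was at 0.46 with an adjusted p of 0.0395. *Tollip* over *Irak1* was at -0.08 (-0.32 to 0.17). These 5 pairs did not pass, and their intervals are too wide to say that the ratios were alike.

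**Figure D3:**
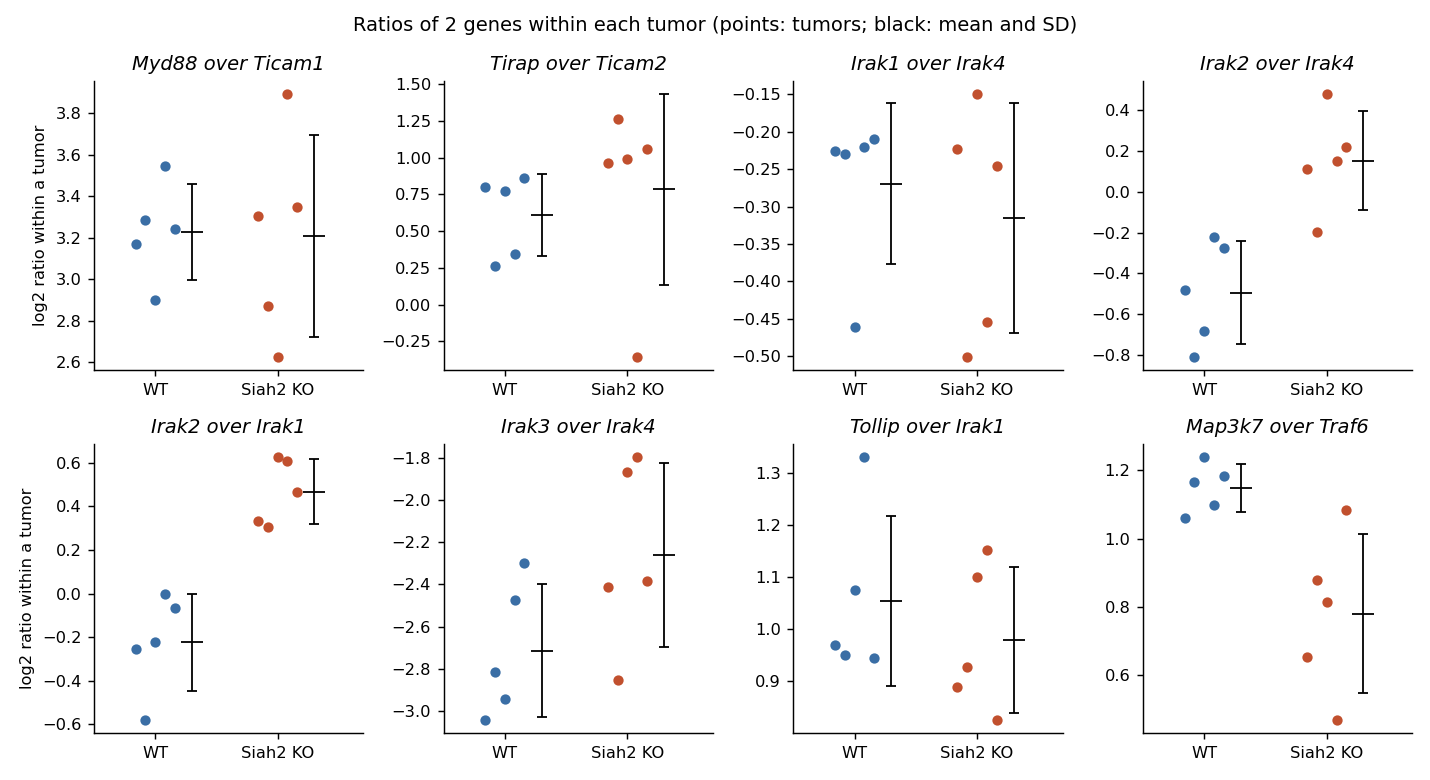
Log2 ratio of the normalized counts of 2 genes in the same tumor, for 8 pairs, in WT and Siah2 KO tumors. Points are tumors and the black line and bars are the mean and SD of 5 tumors, with axes that do not start at 0. Irak2 over Irak1 and Irak2 over Irak4 are higher in every Siah2 KO tumor than in every WT tumor, and Map3k7 over Traf6 is below all WT tumors in 4 of 5.

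Downstream of the IRAKs, *Traf6* was at 232, 254, 234, 278 and 228 normalized counts in WT tumors 2 to 6. In Siah2 KO tumors 1, 2, 3, 5 and 6 it was at 296, 251, 292, 360 and 246. The groups overlapped, and the fold of 1.17 (0.973 to 1.40) had an adjusted p of 0.157 by limma. *Map3k7* was the only gene of the 10 with an estimate below 0 at the deposited scaling, at 466, 462, 514, 499 and 522 in Siah2 KO and 485, 570, 555, 596 and 519 in WT tumors, in the same orders. Of the Siah2 KO tumors 2 were below every WT tumor, and the fold of 0.905 (0.793 to 1.03) had an adjusted p of 0.208. With median scaling the log2 fold change of *Map3k7* was -0.41 (adjusted p = 0.005), and with quantile normalization -0.53. The ratio of *Map3k7* to *Traf6*, TAK1 over the ligase that recruits it, had a log2 difference of -0.37 (-0.643 to -0.095), with an adjusted p of 0.039, an exact permutation p of 0.0159 and 35.5% of the probes called over *Traf6*. This call was lost on leaving out any 1 of 8 of the 10 tumors (adjusted p up to 0.0894), and kept without Siah2 KO 2 or Siah2 KO 6. *Tollip* was at 499 ± 73.4 and 480 ± 49.2 (SD, n = 5 each), with a fold of 1.04 (0.861 to 1.25) and an adjusted p of 0.756. With median scaling it was called lower, at -0.21 (adjusted p = 0.049), and likewise with quantile normalization, at -0.30.

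The tumors did not order alike for all of these genes. Among Siah2 KO tumors, tumor 5 held the highest value for 5 of the 10 genes, *Myd88*, *Ticam2*, *Irak4*, *Traf6* and *Tollip*, and the lowest for *Ticam1* and *Tirap*. Siah2 KO 6 held the lowest value for 5 genes. Among WT tumors, tumor 5 held the highest value for 5 genes. The scaling factors of these tumors were 1.48 for Siah2 KO 5, 1.03 for Siah2 KO 6 and 1.32 for WT 5, against 0.918 to 0.974 in the other WT tumors. Siah2 KO 2, which had the largest factor at 1.60, held the highest value for 0 genes and the lowest for 2. The part of the factors in this order was not tested.

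Transcripts that mark the cell types of a tumor also differed between the groups. The list of 8 leukocyte genes (*Ptprc* and others) had 5 called higher and a median log2 fold change of 0.54, and its summed level was 6134 to 9289 in Siah2 KO and 4153 to 5030 in WT tumors. In bulk tumor RNA, fewer cells of a type and less RNA per cell cannot be told apart. Of 9 macrophage genes, 2 were called higher (*Cd68* and *Msr1*) and 2 lower (*Cd163* and *Mrc1*), with sums of 17992 to 26592 and 15950 to 19324. Of 7 neutrophil genes, 3 were higher, with sums of 664 to 1323 and 315 to 366, while the granule genes *Ltf* and *Camp* were near the floor in both groups. Of 6 T cell genes, 4 were higher, with sums of 662 to 1178 and 498 to 650. The shares called were 62.5% of the leukocyte, 44.4% of the macrophage, 42.9% of the neutrophil and 66.7% of the T cell genes. Over all probes 41.0% were called, and 31.3% were called higher, so the macrophage and neutrophil shares were near that of the panel. Every call in the leukocyte, neutrophil and T cell lists was upward, as were most calls over all probes, while the macrophage calls went both ways. These marker counts are from the deposited scaling only. Of 5 fibroblast genes, 4 (80.0%) were lower, with sums of 10976 to 12818 and 17125 to 22093, where 75 of all 770 probes were called lower. Of 5 endothelial genes, 1 was higher and 1 lower. The labelled tissue, melanoma, could be checked with 3 genes only, of which *Cspg4* and *S100b* were lower and *Mcam* did not pass, with sums of 224 to 405 and 438 to 594, and *S100b* averaged 1.7 normalized counts in Siah2 KO tumors. The part of these differences in the level of *Irak2* was not tested beyond the values relative to leukocyte genes that follow.

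Relative to the median log2 value of the 8 leukocyte genes in the same tumor, which was itself higher by 0.34 in Siah2 KO tumors, *Irak2* was still higher in Siah2 KO tumors, by 0.48 (0.15 to 0.80) with an adjusted p of 0.031 by limma and an exact permutation p of 0.00794. This was 1 of 10 genes, where 14.2% of all probes were called higher on that scale. The *Irak2* call was lost without any 1 of 6 tumors, namely WT 2, WT 3, Siah2 KO 1, Siah2 KO 2, Siah2 KO 3 or Siah2 KO 6 (adjusted p up to 0.0769). *Map3k7* was lower on the same scale, at -0.49 (-0.83 to -0.14) with an adjusted p of 0.035, 4 of 5 Siah2 KO tumors below all WT tumors and 16.6% of all probes called lower. That call too was lost without any 1 of 6 tumors, WT 4, WT 5, WT 6, Siah2 KO 1, Siah2 KO 2 or Siah2 KO 3. *Tollip* was at -0.29 with an adjusted p of 0.091, and the remaining 7 genes at -0.26 to -0.09 without a call. The result depends on which leukocyte gene is taken, as the log2 fold changes of the 8 ran from 0.01 for *Cd37* to 1.16 for *Itgb2*. That of *Irak2*, at 0.82, was close to that of *Ptprc* (0.78) and below those of *Cd53* and *Itgb2*, so that *Irak2* was higher against the median of the list but not against each of its genes. The median of the 10 genes on this scale was -0.18, against -0.10 over all probes.

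By the pattern over the 10 tumors, the probe nearest to *Irak2* among 581 endogenous probes with a mean of at least 20 was *Ptprc*, which encodes CD45, the surface phosphatase carried by all leukocytes. The root mean square difference of their centred log2 values was 0.107, against a median of 0.396 over those probes. *Ptprc* was at 1431 ± 287 against 828 ± 99.2 (SD, n = 5 each), with a log2 fold change of 0.78. The second was *Psmb8*, a subunit of the immunoproteasome, at a difference of 0.109 and a log2 fold change of 0.79. Both share the libraries and the scaling with *Irak2*. The values were centred over all 10 tumors, so the difference between the groups is part of this measure, and a near probe tends to have a similar fold change. Agreement within the groups was not measured.

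Around the 10 genes, a further 68 genes of the pathway were on the panel. Of these 68, 33 (48.5%, against 41.0% of all probes) were called, 29 higher and 4 lower, with a median log2 fold change of 0.28. The probes of the panel were dimmer, as 107 of 770 had a mean under 5 normalized counts, against 1 of the 68 and 0 of the 10. With only the 602 probes at a mean of at least 20 fitted, 332 were called, a larger share than 41.0%. The shares of the pathway lists are set against all probes, so they do not show an excess over probes of similar level. The split was 20 higher and 10 lower with median scaling and 19 higher and 15 lower with quantile normalization. Of the 14 Toll-like receptors and their partners, 6 were higher, 0 were lower by limma (also 0 at an unadjusted p under 0.05) and the median was 0.34. *Tlr8*, an endosomal receptor for RNA, was at 520 ± 144 against 249 ± 20.6 (log2 fold change 1.02, adjusted p = 0.00133). *Cd14*, which passes lipopolysaccharide to TLR4, was at 278 ± 66.6 against 165 ± 15.5 (0.73, adjusted p = 0.0048). *Tlr4* itself was at 474 ± 24.8 against 371 ± 25.5 (0.35, adjusted p = 0.0058). The share of 42.9% called was near that of all probes, and *Cd14*, *Ly96* and *Cd180* among the 6 are partners of the receptors. Median scaling and quantile normalization each gave 3 called higher and 1 lower. With positive control scaling 0 of the 14 were called by limma, and 2 had an unadjusted p under 0.05.

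At the deposited scaling, 5 of the 6 IL-1 family receptors were called (83.3%, against 41.0% of all probes) and they went both ways. The signaling receptor *Il1r1* was lower, at 495 ± 52.2 against 787 ± 66.5 (-0.67, adjusted p = 0.00085). *Il1rl1*, the IL-33 receptor, was higher at 1706 ± 597 against 573 ± 105 (1.52), as were *Il18r1*, the IL-18 receptor (0.99), and the shared chain *Il1rap* (0.41). *Il1rl2*, the IL-36 receptor, was lower (-0.51). In this list, 2 receptors were called higher and 2 lower with median scaling, and likewise with quantile normalization. With positive control scaling 1 of the 6 was called, and it was higher, where 95 of all probes were called. Among 7 inhibitors, 3 were higher, a share of 42.9% that was near that of all probes. They were the decoy receptor *Il1r2* (1.24, adjusted p = 0.00024), the receptor antagonist *Il1rn* (1.42) and *Tnfaip3*, which encodes the deubiquitinase A20 that acts on TRAF6 (0.89).

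In the lists downstream of TRAF6 and in the TRIF branch, the medians lay nearer to 0 than among the target genes. Of 10 genes of TAK1 partners, IKK and NF-kB, *Chuk* (0.25) and *Ikbkg* (0.35) were higher and *Tab1*, a binding partner of TAK1, was lower (-0.27), with a median of 0.11. All 3 had an adjusted p between 0.038 and 0.042, and leaving out single tumors left 0 to 2 calls in the list. The upward calls were lost with median scaling (0 higher and 2 lower) and with quantile normalization (0 higher and 5 lower). Of 7 genes of the TRIF branch, 3 were higher, the kinase *Ikbke* (0.65), the scaffold *Tank* (0.30) and the transcription factor *Irf7* (0.65). With positive control scaling 0 of the 7 were called by limma, and 1 had an unadjusted p under 0.05. Of 11 genes of the MAP kinase arm, *Fos* (1.78), *Map2k1* (0.37) and *Jun* (0.24) were higher, with a median of 0.08. With median scaling this list had 1 called higher and 3 lower, and with quantile normalization 1 higher and 5 lower. At the deposited scaling 41.0% of all probes were called. The share was 30.0% in the TAK1, IKK and NF-kB list, 42.9% in the TRIF branch and 27.3% among the MAP kinases, thus near or below that of the panel.

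The 13 target genes had 9 called higher, 1 lower and a median of 1.51. The share called was 76.9%, against 41.0% of all probes. The list was chosen with earlier results known, and the paper reports higher *Nos2*, *Ccl3*, *Ccl4*, *Tnf* and *Il1b* in Siah2-/- tumors, from this assay among others. The share and the median of the target genes, and their distance from the other lists, are thus descriptions and not tests. *Ccl4*, a chemokine of activated myeloid cells and lymphocytes, was at 152 ± 20.1 against 32.6 ± 7.96 (2.20). *Ccl3* was at 161 ± 33.4 against 39.5 ± 11.9 (2.02). *Nos2*, the inducible nitric oxide synthase, was at 220 ± 125 against 11.4 ± 5.94 (4.09). *Il12b*, a subunit of IL-12, was the target gene called lower (-0.86). With positive control scaling 11 of the 68 genes were called.

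**Figure D4:**
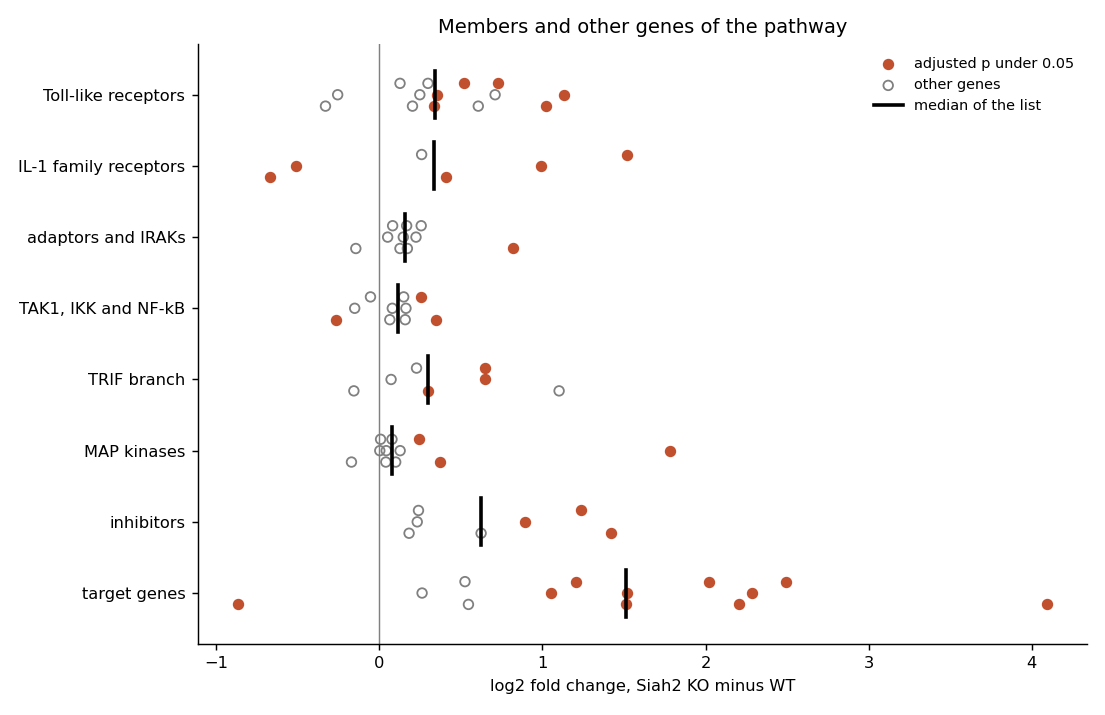
Log2 fold change, Siah2 KO minus WT, of the 10 adaptor and kinase genes and of 68 other genes of the pathway, by list. Filled points have an adjusted p under 0.05 by limma, open points do not, and the black line is the median of a list, from 0.08 for the MAP kinases to 1.51 for the target genes. Among the adaptors and IRAKs the filled point is Irak2 at 0.82.

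As *Irak2* changed against *Irak1* and *Irak4*, the promoter sequences of the 3 kinases are shown for comparison, from RefSeq (GRCm38.p6), 250 bases before to 50 after the annotated start, in the direction of the gene. Capitals mark matches, on either strand, to GGGCGG (a GC box), GGGANNNNCC (a loose NF-kB motif), GAAANNGAAA (an interferon-stimulated response element), TGANTCA (AP-1) or TTGCNNAA (C/EBP), with overlapping matches counted. The windows are chrX:74023869-74024168 on the minus strand for *Irak1*, chr6:113638217-113638516 on the plus strand for *Irak2* and chr15:94543410-94543709 on the plus strand for *Irak4*.
Irak1: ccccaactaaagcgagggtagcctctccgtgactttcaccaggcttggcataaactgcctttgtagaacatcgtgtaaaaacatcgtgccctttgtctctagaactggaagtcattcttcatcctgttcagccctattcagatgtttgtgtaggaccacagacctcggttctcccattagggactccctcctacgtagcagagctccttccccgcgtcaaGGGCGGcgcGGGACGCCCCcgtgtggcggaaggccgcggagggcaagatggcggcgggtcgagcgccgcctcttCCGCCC
Irak2: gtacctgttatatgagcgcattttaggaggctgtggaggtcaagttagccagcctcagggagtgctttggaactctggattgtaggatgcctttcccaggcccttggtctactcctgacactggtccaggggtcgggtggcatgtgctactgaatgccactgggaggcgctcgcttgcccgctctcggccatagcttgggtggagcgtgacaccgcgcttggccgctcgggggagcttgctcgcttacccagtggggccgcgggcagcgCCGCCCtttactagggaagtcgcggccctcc
Irak4: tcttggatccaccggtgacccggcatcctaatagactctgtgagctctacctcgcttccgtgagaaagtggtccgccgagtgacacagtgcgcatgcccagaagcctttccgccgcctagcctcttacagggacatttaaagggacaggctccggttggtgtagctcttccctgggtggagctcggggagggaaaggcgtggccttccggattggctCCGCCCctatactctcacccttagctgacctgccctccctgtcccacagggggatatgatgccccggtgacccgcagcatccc
In the *Irak2* window the single match was a GC box, as it was in that of *Irak4*, and the *Irak1* window held 2 GC boxes and 1 loose NF-kB match. A GC box was found in all 10 windows searched (9 of the genes and *Irak3*) and in 35.7% of 32851 promoters of that length. For a gene with several annotated windows, the window with the lowest coordinate was searched. The 32851 promoters were counted without such a choice, so the shares are not a like comparison. The loose NF-kB motif was in 5 of the 10, those of *Irak1*, *Irak3*, *Map3k7*, *Tirap* and *Traf6*, and in 20.7% of all promoters. The response element was in 1, that of *Myd88* (3.44% of all), the C/EBP motif in 1, that of *Map3k7* (10.8%), and the AP-1 motif in 0 (7.81%). A match describes these letters in this window and is not a binding site.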

How the data were processed

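Expression of immune genes was measured with the NanoString nCounter PanCancer Immune Profiling panel in 10 YUMMER1.7 tumors, 5 from WT and 5 from Siah2 KO mice, grouped by the sample labels. The table has 784 rows, with 750 endogenous and 20 reference genes beside 6 positive and 8 negative control probes. The signal deposited by the authors is a normalized count, made with nSolver 2.0 by bringing every tumor to one geometric mean of the reference genes. Per the study's methods, outliers by positive control counts had been removed beforehand. From the values, a background constant, not a whole number, had been subtracted and values under 1 raised to 1 before the factor of each tumor was applied. In WT tumors with a factor under 1, the lowest values were again 1 after the factor. Raw counts could thus not be recovered, and no count model was run. The number of tumors and the floor limit the precision, and dim genes above the floor have understated fold changes on the log2(value + 1) scale. Probes at the floor took on the factors instead, which were larger on average in Siah2 KO (1.30) than in WT tumors (1.03). For example, *C9* and *Cd46* had an identical log2 fold change of 0.15. The lowest mean among the 10 genes was 47.8 normalized counts.

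The pseudocount was 1. A linear model with moderated variance (limma 3.58.1 under R 4.3.3) gave the difference of Siah2 KO from WT, two-sided, with Benjamini-Hochberg adjustment over 770 probes, beside an exact permutation test, also two-sided, on mean log2 values. Means and SD are of normalized counts. For ratios and for values relative to leukocytes, the second gene or the median of 8 leukocyte genes was subtracted in each tumor before the same test. All 10 genes were named, with *Irak3* as the other kinase of the family, and from each pathway list the 3 genes with the smallest adjusted p under 0.05, or all of 5 or fewer. The marker genes named singly and the target gene *Il12b* were chosen after their values were seen. The genes and lists were chosen with earlier results of these data known. The alternatives were median, quantile and positive control scaling, a pseudocount of 10, a mean of at least 20, endogenous probes only, an intensity trend, the methods' t-test, the replicate number as a block, and leaving out each tumor. The fits were tested on simulated data. Sequences were matched by symbol, and figures were drawn in matplotlib 3.10.9 (Python 3.11.15).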

Additional observations from a re-analysis of the deposited data

Results flagged for a closer look

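In 3 of 38 groups of 5 values, a tumor lay farther from the others than Dixon's 95% criterion allows, where chance gives about 5% of groups. For *Ticam2*, Siah2 KO 5 at 161 normalized counts was set off from the other 4 Siah2 KO tumors at 66.5 to 83.3, with a gap of 0.745 of the range. The log2 ratio of *Tirap* to *Ticam2* in the same tumor was -0.36, against 0.96 to 1.26 in the other 4, a gap of 0.815 of the range. The log2 ratio of *Irak1* to *Irak4* in WT 4 was -0.46, against -0.23 to -0.21 in the other 4 WT tumors, a gap of 0.922 of the range.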

How the results depend on the processing

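*Irak2* stayed higher in Siah2 KO tumors in every setting run, with an adjusted p under 0.05 in all but positive control scaling (0.65, adjusted p = 0.233), and was 0.82 with the replicate block (adjusted p = 0.021). Of the 10 genes, 1 was called in the deposited scaling, 3 with median scaling and 3 with quantile normalization (*Irak2* higher, *Tollip* and *Map3k7* lower in both), 0 with positive control scaling by limma (also 0 at an unadjusted p under 0.05), and 1 with each tumor left out. Positive control scaling called 95 probes in place of 316 and 11 pathway genes in place of 33. The split of called probes was 241 higher and 75 lower as deposited, 163 and 152 with median scaling, 153 and 181 with quantile normalization. None of the estimates that changed sign passed the test as deposited. In the order median, quantile and positive control scaling they became -0.12, -0.19 and -0.015 for *Myd88*, -0.18, -0.27 and -0.078 for *Ticam2*, -0.14, -0.19 and -0.035 for *Irak1* and -0.21, -0.30 and -0.11 for *Tollip*. With median and quantile scaling they became -0.093 and -0.032 for *Ticam1*, -0.0079 and -0.052 for *Tirap*, -0.094 and -0.14 for *Irak4* and -0.041 and -0.11 for *Traf6*. The shift of all probes under each scaling, given above, moves all genes of a tumor alike, apart from quantile normalization. With each tumor left out, the estimate ran from -0.14 to 0.17 for *Ticam2* and from -0.0090 to 0.12 for *Tollip*, from -0.19 to 0.13 for *Myd88* over *Ticam1*, from -0.093 to 0.0010 for *Irak1* over *Irak4* and from -0.44 to -0.29 for *Map3k7* over *Traf6*. Relative to leukocyte genes it ran from -0.29 to 0.059 for *Ticam1*, from -0.20 to 0.086 for *Tirap*, from 0.37 to 0.53 for *Irak2* and from -0.57 to -0.38 for *Map3k7*.

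Replicate numbers occur in both groups for 4 pairs of tumors. Deviations from the group means correlated at 0.0515 to 0.489 within a number and -0.326 to 0.186 between numbers, and 3 of 4 Siah2 KO tumors were nearest their own number, a hint of pairing in the data. As 1 of the 4 pairs correlated near 0 and the labels name no shared litter or batch, the unblocked comparison was kept. With the replicate block in those 8 tumors 235 probes were called, and without the block 232. Irak2 over Irak4 was at 0.61 (adjusted p = 0.097 with the block, 0.056 without), Map3k7 over Traf6 at -0.31 (0.147 and 0.173), Irak2 relative to leukocyte genes at 0.51 (0.131 and 0.075) and Map3k7 relative to them at -0.43 (0.192 and 0.120), in each case past the threshold in 10 tumors and not in 8. The cause of the other changes was not tested. A count model was not run, since whole counts could not be recovered. With 5 tumors a group, differences of the size seen for the 9 genes without a call were not resolved.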
